A study of Caenorhabditis elegans with 4 samples.

Results

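The C-type lectin genes of Caenorhabditis elegans, named clec, were taken as all rows of the deposited count table whose WormBase gene ID carries a symbol made of clec, a hyphen and a number. The rule found 240 of the 20182 genes of the table, all annotated as protein-coding, with 86 on chromosome V, 53 on IV, 48 on II, 36 on I, 14 on III and 3 on X. They carry 237 symbols, since 3 symbols stand on 2 rows each, and those 6 rows had no count in any library. The rule used names only, so every measured value below is independent of it.

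A C-type lectin-like domain is a compact protein fold held together by disulfide bonds, first known from proteins that bind sugars with the help of calcium. Nematodes carry many genes with this domain, many of them for secreted proteins, and their binding partners are mostly unknown. Many are transcribed in the intestine, and different bacteria raise or lower different sets of them, in part through the p38 MAP kinase pathway of the gut. Some members are therefore used as reporters of infection.

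Total RNA of whole young adult worms, fed the Escherichia coli laboratory strain OP50 and exposed to no other agent, was sequenced in 4 libraries. Of these, 2 were made from N2 worms, the usual wild type, and 2 from worms carrying both cey-1(rrr12) and cey-4(ok858). The mutated genes encode Y-box proteins, which bind mRNA, and the series' title names polysome formation and tissue-specific roles as the subject. No single mutant was analysed here, so the alleles cannot be told apart. Libraries held 24717311 to 33009708 counts. The mutated genes fitted the labels: cey-4 was counted 23072 and 23781 times in N2 against 338 and 280 in the mutant, and cey-1 4218 and 4042 times against 723 and 609. Whether libraries of a group stem from different worm cultures is not stated in the labels, and the spread that p-values rest on may be technical. In whole animals, fewer cells of a type and less RNA per cell cannot be told apart.

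Individual clec genes changed in both directions, while the summed level of the family did not differ beyond the spread between libraries. The largest rises were those of clec-33 and clec-28, neighbours on chromosome V that were almost silent in N2. At higher levels, clec-119, clec-153, clec-123 and clec-73 rose and clec-218, clec-139 and clec-47 fell. The gene with the most transcript, clec-63, did not pass the test, nor did the infection reporter clec-85.

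Levels are given in CPM, counts relative to library size, after TMM scaling for differences in library composition, and fold changes are log2 values of mutant over N2 with their standard error. Of the 240 genes, 103 passed the filter on low counts and were tested, and 137 were not, of which 45 had no count at all. Among the tested genes 33 were called at an adjusted p below 0.05 (edgeR quasi-likelihood test, Benjamini-Hochberg over all 13944 tested genes). These are 32.04% of tested clec genes, where 26.4% of all tested genes were called. In direction, 18 were higher (17.5%, against 13.1% of all tested genes) and 15 were lower (14.6%, against 13.3%). These shares lie near those of all genes and are no result about the family. The median log2 fold change was -0.09 over the tested clec genes and -0.01 over all tested genes. DESeq2 called 14 higher and 10 lower (10.1% and 9.5% of all tested genes), and limma on the deposited log2 values called 18 and 12 (13.6% and 11.5%). Without N2 replicate 1 there were 17 higher and 22 lower (14.8% and 16.7%), and without N2 replicate 2 there were 19 and 12 (13.9% and 12.9%). Without mutant replicate 1 the numbers were 7 higher and 7 lower (5.95% and 5.07% of all tested genes), and without mutant replicate 2 they were 11 and 4 (6.6% and 2.59%).

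**Figure D1:**
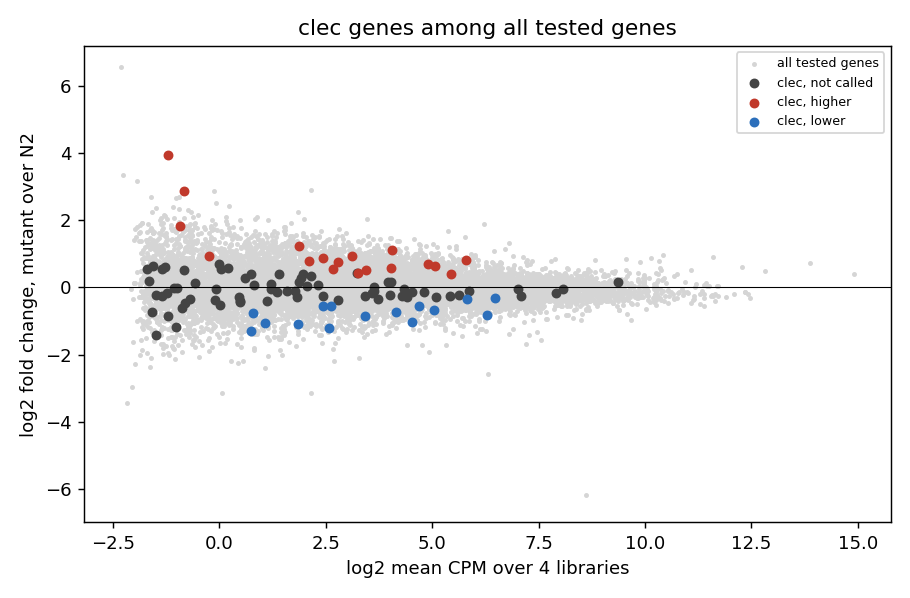
log2 fold change, mutant over N2, against log2 mean CPM over the 4 libraries, for all 13944 tested genes (grey) and the 103 tested clec genes (coloured by call). The 18 higher and 15 lower clec genes lie on both sides of 0, and clec-33 and clec-28 stand at the top left with low levels.

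The filter itself bears on these counts. A tested gene needed about 10 counts, or 0.327 CPM, in a pair of libraries, and 14 clec genes reached this in both libraries of 1 group only. Of these, clec-33, clec-28 and clec-260 were called and 11 were not. Among the untested genes the highest mean level was 0.326 CPM. With all 195 clec genes that had a count in the fit, 19 were higher and 15 lower (12.1% and 10.9% of all genes), and all 33 calls were made again.

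The 240 genes together took 2476 and 2689 CPM in N2 and 2557 and 2498 CPM in the mutant. The groups overlapped, with both mutant values between the N2 values. The means were 2583 ± 151 and 2527 ± 41.6 CPM (SD, n = 2), and an exact two-sided permutation test gave p = 1, where 2 against 2 libraries allow no p below 0.333. A share of 25.8% of this sum came from clec-63. Without that gene the sums were 1885 and 2041 CPM in N2 and 1876 and 1780 CPM in the mutant, with exact p = 0.333, the smallest possible. The difference of the whole sum, -55.4 CPM, was -162 CPM without N2 replicate 1 and 51.1 CPM without N2 replicate 2, so its direction turned with 1 library.

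Abundance was held by few members. Only 5 genes had a mean of at least 100 CPM and 37 at least 10 CPM, and 26 of the tested genes lay under 1 CPM. Per kilobase of summed exons, clec-63 was the highest in N2 at 456 and 499.9 CPM per kb, followed by clec-87 at 246 and 285 and clec-50 at 251 and 269. The values of clec-87 and clec-50 overlap, so their order is not fixed by these libraries. Next came clec-47 at 191 and 194 and clec-88 at 118 and 125 CPM per kb.

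Most of these abundant genes did not pass the test. clec-63 (WBGene00009394) measured 591 and 648 CPM in N2 against 680 and 718 CPM in the mutant, and its log2 change of 0.17 ± 0.09 did not pass (adjusted p = 0.206, edgeR). Both mutant libraries lay above both N2 libraries. Groups without overlap were seen in 72 of the 103 tested clec genes (69.9%) and in 64.0% of all tested genes. clec-50 had a log2 fold change of -0.05 ± 0.10, clec-41 of -0.04 ± 0.12, clec-87 of -0.16 ± 0.10, clec-65 of -0.11 ± 0.10 and clec-88 of -0.25 ± 0.09, none past the threshold with all 4 libraries. Without N2 replicate 1 clec-87 (-0.26) and clec-88 (-0.29) were called lower. An exon of clec-87 overlaps iars-2 on the opposite strand, and the sources used here do not say whether counting used strand. Exons of clec-88 and clec-85 overlap a gene on the same strand (ctsa-4.1 and Y54G2A.40).

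The exceptions among the abundant genes were clec-47 and clec-150, both lower. clec-47 (WBGene00011668, chromosome V, 15175759 to 15176324, plus strand) measured 99.6 and 101 CPM in N2 and 64.6 and 48.9 CPM in the mutant. The groups were well apart, although the mutant libraries differed from each other more than the N2 libraries did. The group means were 100.3 ± 1.09 and 56.8 ± 11.13 CPM (SD, n = 2; change of -0.82 ± 0.13 on the log2 scale; adjusted p = 0.001287 in edgeR's fit across all genes), and it was called without any 1 of the libraries. clec-150 measured 93.3 and 105 CPM in N2 and 81.9 and 77.7 CPM in the mutant, a smaller fall (-0.31 ± 0.10). That call was lost without N2 replicate 2 (-0.23), without mutant replicate 1 (-0.33) and without mutant replicate 2 (-0.24).

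**Figure D2:**
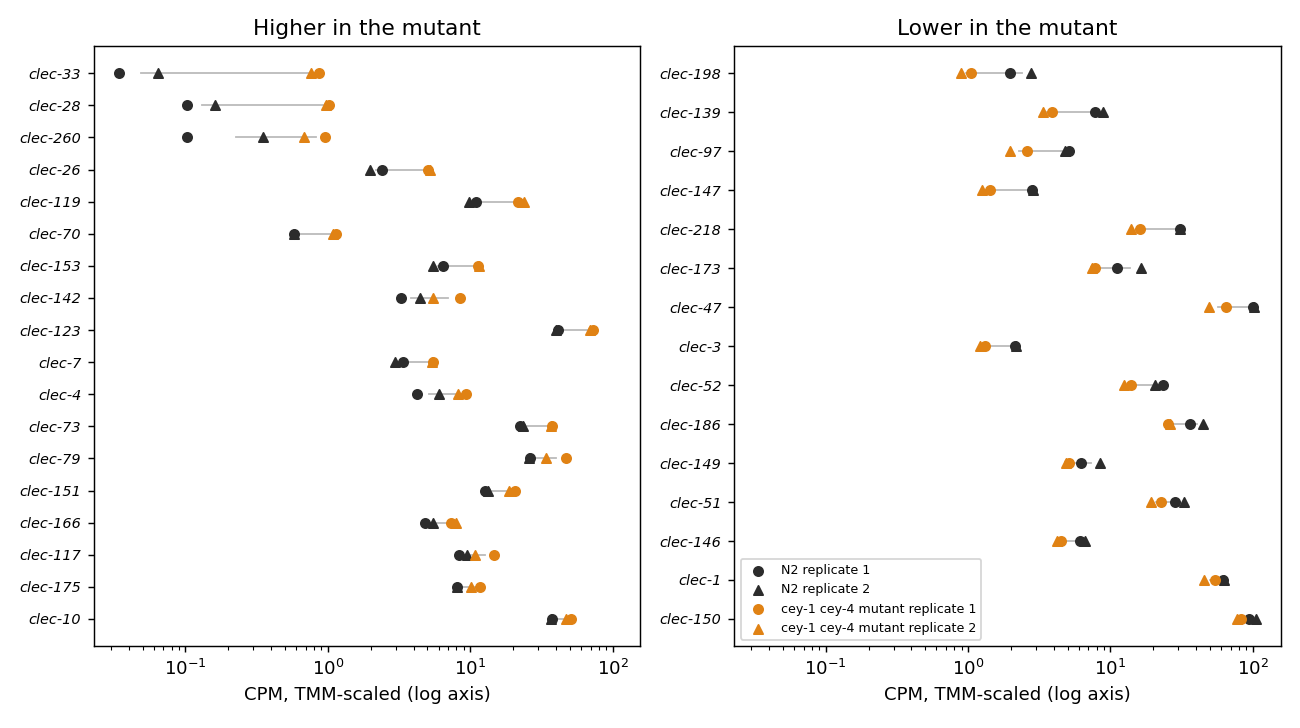
CPM (TMM-scaled, log axis) in each of the 4 libraries for the 18 clec genes called higher and the 15 called lower, ordered by the size of the change, with a line joining the group means. clec-33 and clec-28 are below 0.2 CPM in both N2 libraries and near 1 CPM in both mutant libraries, while clec-150 and clec-10 show gaps that are small beside the axis.

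The largest changes were at the end of a dense row of clec genes on chromosome V. There 13 clec genes, from clec-40 to clec-33, lie within 30.7 kb (16839121 to 16869840 in the Ensembl annotation of assembly WBcel235; the sources used here do not give the build behind the counts). clec-33 (WBGene00009859) was counted 1 and 2 times in N2 and 29 and 19 times in the mutant. Its neighbour clec-28 (WBGene00009857) was counted 3 and 5 times in N2 and 34 and 24 times in the mutant. Both genes were nearly absent in each N2 library and present in each mutant library. Pooled over libraries the mutant held 16.9 times the N2 level of clec-33, with an exact 95% counting interval of 5.46 to 84.98, and 7.67 times that of clec-28, with an interval of 3.65 to 18.6. These intervals cover counting error only. The fitted log2 fold changes were 3.94 ± 0.54 (edgeR adjusted p = 0.000767) and 2.87 ± 0.43 (adjusted p = 0.001109), placing clec-33 at rank 2 and clec-28 at rank 7 by size among the 1821 higher genes. Both calls were made without any 1 of the libraries. Without a filter on low counts the ranks were 7 and 15 among 2201 higher genes. Both genes passed the filter through the mutant libraries alone, so a high level there was a condition of being tested. Their ranks and adjusted p values are therefore no independent support. In limma on the deposited log2 values, which hold an added 8, the changes were 1.54 for clec-33 and 1.48 for clec-28. The size of both rises thus depends on how the few N2 counts are treated.

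Another gene of this row, clec-26, rose from 70 and 62 counts in N2 to 168 and 129 in the mutant. In CPM these are 2.39 and 1.99 against 5.02 and 5.20, so the groups were far apart (log2 fold change 1.22 ± 0.18, edgeR adjusted p = 0.001092, called without any 1 of the libraries). The other 4 tested genes of the row did not pass, with clec-36 at 0.28, clec-37 at 0.54, clec-31 at -0.06 and clec-22 at -0.62, and 6 were not tested. Outside the family, 26 other genes lie within 50 kb of clec-28 and clec-33, of which 7 were tested and 0 called in either direction (edgeR; their adjusted p values ran from 0.154 to 0.641, with 0 at an unadjusted p under 0.05). The largest change of these 7 was 1.04 at F09C6.13, with 0.273 and 0.128 CPM in N2 and 0.389 and 0.443 CPM in the mutant. fbxa-206 (-0.19) and Y102A5C.2 (-0.25) leaned lower. The untested neighbours had too few counts to be judged, so the absence of calls does not show that the rise stops at the clec genes. The convergent ends of clec-28 and clec-33 do not overlap in the annotation. Similarity between neighbouring copies was not checked here, since no sequence was used, so reads shared by near-identical genes could be split between members.

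**Figure D3:**
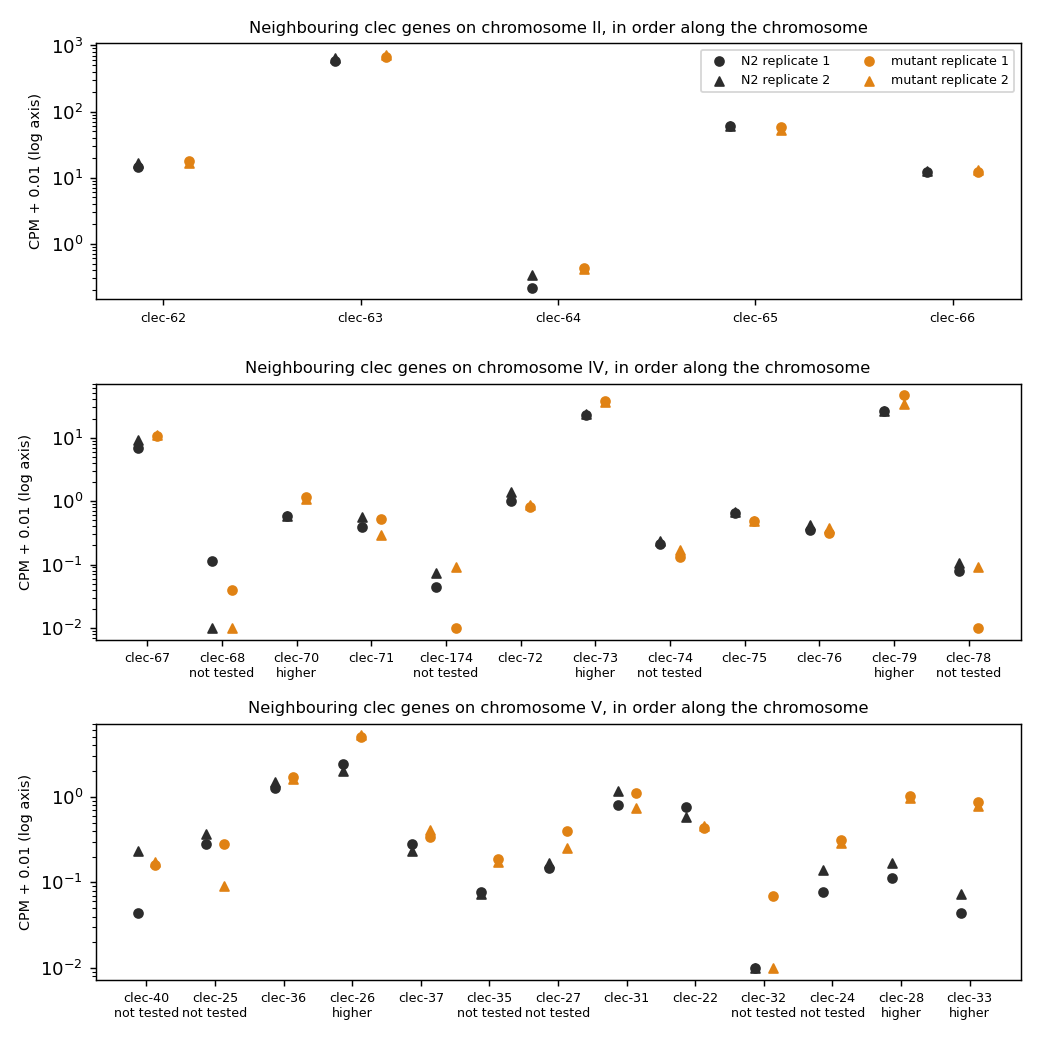
CPM plus 0.01 (log axis) in each library for 3 rows of neighbouring clec genes on chromosomes II, IV and V, in order along the chromosome, with the call under each name. On V the gap between groups is wide at clec-26, clec-28 and clec-33, and no gene between them was called. On II none of the 5 genes was called, with log2 fold changes from -0.11 to 0.63.

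Calls were scattered over the other rows of neighbours. With a gap of up to 20 kb between members, 88 clec genes fell into 14 rows of at least 4 genes, and 10 of the 40 tested genes in rows (25%) and 23 of the 63 outside rows (36.5%) were called, beside 26.4% of all tested genes. The difference between these shares was not tested. No run of 3 or more neighbouring clec genes was called in the same direction. An untested gene also ended a run, and 137 of the 240 were untested, so few runs could have been seen. On chromosome IV the row from clec-67 to clec-78 held 12 genes, of which clec-73, clec-79 and clec-70 were higher and 5 other tested members were not called. clec-73 measured 22.4 and 23.5 CPM in N2 and 37.4 and 36.7 CPM in the mutant, which is a rise of 0.69 ± 0.10 on the log2 scale (edgeR adjusted p = 0.001121). clec-79 measured 26.3 and 25.96 CPM in N2 and 46.8 and 33.8 CPM in the mutant (0.63 ± 0.14), and was not called without mutant replicate 1 (0.39). On chromosome II the row from clec-62 to clec-66, which holds clec-63, had 5 tested genes and 0 calls (edgeR), with log2 fold changes from -0.11 to 0.63 and none at an unadjusted p under 0.05.

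Other rises were found on chromosomes II and III and elsewhere. clec-119 (WBGene00018575, chromosome II, 1255937 to 1258375, plus strand) measured 11.05 and 9.74 CPM in N2 and 21.6 and 24.02 CPM in the mutant. The groups lay far apart, with means going from 10.4 ± 0.923 to 22.8 ± 1.74 CPM (1.13 ± 0.13 on the log2 scale, edgeR adjusted p = 0.00035). clec-123 measured 41.1 and 40.0 CPM in N2 and 72.6 and 69.5 CPM in the mutant, a rise of 0.81 ± 0.09. On chromosome III the neighbours clec-151 and clec-153 rose together. clec-153 measured 6.44 and 5.51 CPM in N2 and 11.4 and 11.6 CPM in the mutant (0.94 ± 0.14), and clec-151 rose by less (0.59 ± 0.12; not called without mutant replicate 1, 0.53). clec-142 measured 3.24 and 4.42 CPM in N2 and 8.46 and 5.48 CPM in the mutant, and its call (0.88 ± 0.23) was lost without mutant replicate 1 (0.53). clec-260 was counted 3 and 11 times in N2 and 32 and 17 times in the mutant (1.84 ± 0.48). It was not called without mutant replicate 1 (1.57) or mutant replicate 2 (2.06), and its change was 2.98 without N2 replicate 2.

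The smallest rises among the called genes were those of clec-10 (0.40 ± 0.10), clec-175 (0.44 ± 0.14), clec-117 (0.51 ± 0.16) and clec-166 (0.56 ± 0.15). None of these 4 was called without mutant replicate 1 (0.36, 0.34, 0.29 and 0.64). Without mutant replicate 2 clec-10 (0.48), clec-175 (0.56) and clec-166 (0.53) were not called, and without N2 replicate 2 clec-175 (0.44) was not called.

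Among the genes that fell, clec-218 and clec-139 were called with the smallest adjusted p values. clec-218 (WBGene00020938, chromosome V, 8307942 to 8310766, plus strand) measured 30.7 and 30.8 CPM in N2 and 16 and 13.98 CPM in the mutant. The N2 libraries were nearly equal and lay far above both mutant libraries (-1.03 ± 0.12 on the log2 scale, edgeR adjusted p = 0.00035). clec-139 measured 7.84 and 8.81 CPM in N2 and 3.86 and 3.35 CPM in the mutant (-1.20 ± 0.16). clec-97 fell from 4.94 ± 0.194 to 2.27 ± 0.422 CPM (-1.10 ± 0.19), and its exons overlap clec-98 on the opposite strand. These 3 were called without any 1 of the libraries.

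The remaining falls were called in fewer of the fits that leave out a library, in which fewer of all genes were called too when the library was a mutant one. clec-198 went from 58 and 87 counts to 35 and 22 (-1.29 ± 0.27), and clec-173 measured 11.11 and 16.4 CPM in N2 and 7.84 and 7.46 CPM in the mutant (-0.85 ± 0.18). Neither was called without mutant replicate 1 (-1.41 and -0.87) or mutant replicate 2 (-1.16 and -0.78), and clec-173 moved to -0.54 without N2 replicate 2. clec-147 (-1.06 ± 0.21) and clec-51 (-0.55 ± 0.13) were not called without mutant replicate 2 (-0.94 and -0.40). clec-3 (-0.77 ± 0.22), clec-146 (-0.55 ± 0.15), and clec-149 (-0.55 ± 0.18) were not called without N2 replicate 2 (-0.76, -0.48 and -0.31), mutant replicate 1 (-0.82, -0.59 and -0.57) or mutant replicate 2 (-0.69, -0.47 and -0.49). clec-1 (-0.33 ± 0.11) was not called without mutant replicate 1 (-0.44) or 2 (-0.19). Exons of clec-147, clec-3 and clec-51 overlap another gene on the opposite strand (C04H5.1, C41H7.2 and faah-1).

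**Figure D4:**
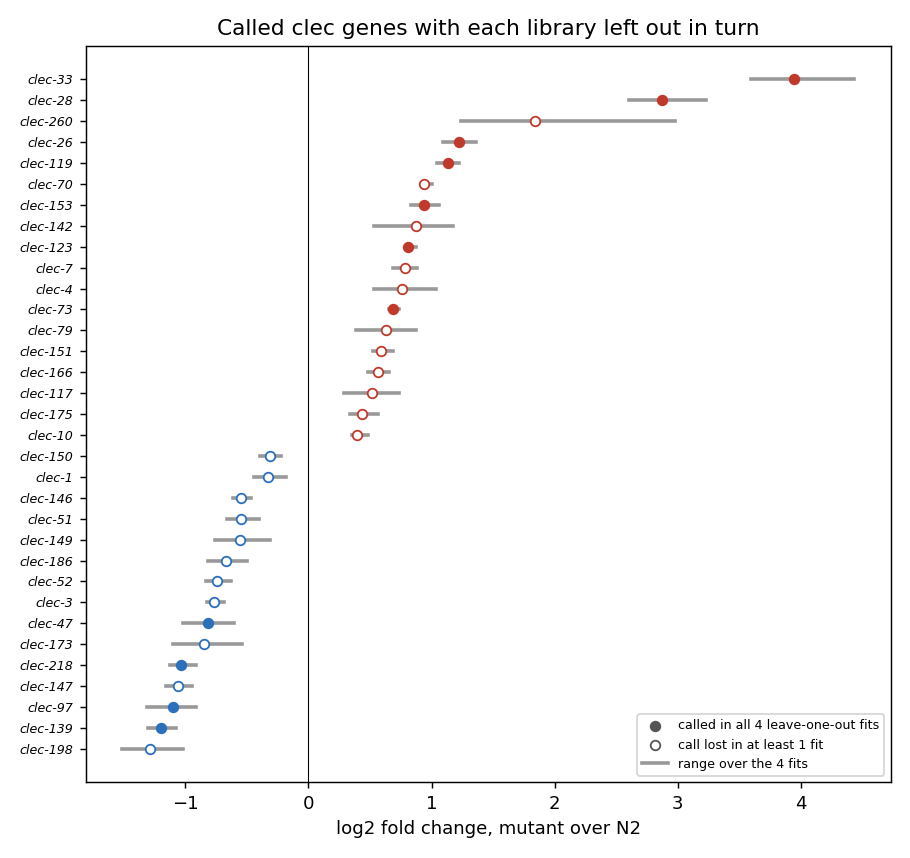
log2 fold change, mutant over N2, of the 33 called clec genes (points) with the range over 4 fits that each leave out 1 library (bars). Filled points mark the 11 genes called in all 4 fits, 7 higher and 4 lower, and open points the 22 genes whose call was lost in at least 1.

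Over all 4 fits no called gene changed sign, and 11 of the 33 were called in each. A fit without 1 library leaves a lone library in a group, which is then assumed to vary like the other group. Without a mutant library the spread within groups therefore comes from the N2 pair. That pair differed more, with a chi-square per degree of freedom of 30.7 against 9.06 in the mutant. A call lost in such a fit need not mean that the change rested on the mutant library left out. How many of all called genes stayed called in every such fit was not computed. The count for clec genes is therefore no result about the family.

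The clec genes described as responding to bacteria were called in both directions. A list of 23 such genes held 17 tested members, of which 3 were higher (clec-4, clec-7 and clec-70) and 2 were lower (clec-52 and clec-186), with a median log2 fold change of -0.04. Of all tested genes 13.1% were higher and 13.3% lower, so these counts are no result about the list. Without mutant replicate 1 they were 0 and 1, and without mutant replicate 2 they were 0 and 0 (edgeR). clec-4, a target of the p38 MAP kinase pathway, measured 4.26 and 6.06 CPM in N2 and 9.30 and 8.14 CPM in the mutant (0.76 ± 0.18, edgeR adjusted p = 0.011). clec-7 rose by a like amount (0.78 ± 0.17), and neither clec-4 nor clec-7 was called without mutant replicate 1 (0.67 and 0.79) or mutant replicate 2 (0.88 and 0.82). clec-70, among the genes described as induced by Staphylococcus aureus, was counted 17 and 18 times in N2 and 38 and 27 times in the mutant. Its call (0.94 ± 0.30) was lost without any 1 of the libraries, with values from 0.92 to 1.001. clec-52 measured 23.4 and 20.6 CPM in N2 and 13.9 and 12.4 CPM in the mutant (-0.74 ± 0.12), a call lost without mutant replicate 2 (-0.63). clec-186 measured 36.2 and 45.0 CPM in N2 and 25.2 and 25.99 CPM in the mutant (-0.67 ± 0.12), not called without mutant replicate 1 (-0.63) or 2 (-0.66).

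The other reporters were not called with all 4 libraries and the filter. clec-85, another target of the p38 pathway, measured 12.5 and 13.1 CPM in N2 and 11.7 and 12.1 CPM in the mutant (-0.11 ± 0.12, edgeR adjusted p = 0.554). clec-67 measured 6.82 and 9.26 CPM in N2 and 10.65 and 11.08 CPM in the mutant (0.43 ± 0.16, adjusted p = 0.0703), and was called without N2 replicate 2 (0.67) and with no filter on low counts (0.46, adjusted p = 0.01306 in edgeR). clec-49, whose loss is described to weaken resistance to Serratia marcescens, had a log2 fold change of -0.25 ± 0.11 (adjusted p = 0.137). clec-60, a gut reporter of infection, had 2 and 0 counts in N2 and 8 and 1 in the mutant and was not tested. clec-39 had no count in any library, which allows up to 0.091 to 0.121 CPM by library, and clec-78 had at most 3 counts in a library.

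Genes of the defence pathways were measured beside the family. Their list was chosen with earlier results of these data known, so its counts are a description and no independent support. Of 32 tested genes of p38, insulin, TGF-beta and other defence signalling, 11 were higher and 0 lower, with a median log2 fold change of 0.25, beside 13.1% of all tested genes higher. The number higher was 7 without mutant replicate 1 and 4 without mutant replicate 2, where 5.95% and 6.6% of all tested genes were higher. pmk-2, a p38 MAP kinase gene, measured 4.64 and 3.85 CPM in N2 and 8.34 and 10.2 CPM in the mutant (1.12 ± 0.17, edgeR adjusted p = 0.001109). The other members with the largest changes were zip-2, which encodes a bZIP factor of pathogen response (0.86 ± 0.14), and the p38 gene pmk-3 (0.61 ± 0.11). The rises did not cover each pathway. With all 4 libraries the insulin genes daf-2 and daf-16 and the TGF-beta genes dbl-1, sma-2, sma-3, sma-4 and sma-6 were not called. Of the p38 pathway nsy-1, sek-1 and atf-7 were not called either. tir-1 was higher (0.51 ± 0.12), but not called with the length trend removed (0.28). These genes were named after their values were seen. pmk-1, the p38 kinase that acts in gut immunity and named here after its value was seen, had a log2 fold change of 0.30 ± 0.12 and did not pass (adjusted p = 0.0999). With the length trend of each library removed, as explained for the exon lengths below, 8 of the 32 were higher.

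The 14 tested defence effector genes outside the family, also listed with earlier results of these data known, went both ways. There were 4 higher and 5 lower (5 and 4 with the length trend removed), beside 13.1% and 13.3% of all tested genes. Without mutant replicate 1 they were 1 and 0, and without mutant replicate 2 they were 1 and 1; without N2 replicate 2 they were 6 and 3. sysm-1 had 0.546 and 1.025 CPM in N2 and 0.269 and 0.202 CPM in the mutant (-1.70 ± 0.46; not called without N2 replicate 2, -1.17, mutant replicate 1, -1.93, or mutant replicate 2, -1.51). F55G11.8 rose (0.77 ± 0.14) and dod-17 fell (-0.64 ± 0.12; not called without mutant replicate 1, -0.62, or 2, -0.61).

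Called clec genes differed in exon length by direction. Summed exon length had a median of 1.48 kb (range 0.623 to 1.93) among the 18 higher genes and 0.975 kb (0.52 to 1.60) among the 15 lower genes. Fold changes of all tested protein-coding genes also went with length, with a median of -0.20 up to 1 kb and 0.06 over 1.5 kb. With bins set after the values were seen, 8 of 24 tested clec genes over 1.5 kb were higher and 1 was lower, where 12.99% and 6.75% of all tested protein-coding genes of that length were. Up to 1 kb, 2 of 31 clec genes were higher and 8 lower, against 10.8% and 24.4% of protein-coding genes. In a fit that removed each library's trend on exon length, 19 clec genes were higher and 12 lower (13.3% and 10.3% of all tested genes). All 18 higher calls were made in that fit, and 11 of the 15 lower calls. Over 1.5 kb the numbers were then 8 higher and 2 lower, and up to 1 kb they were 3 and 5. The lost calls were clec-1 (-0.14), clec-146 (-0.32), clec-149 (-0.43) and clec-150 (-0.25), and clec-223 (-0.37) and clec-178 (0.56), named here after their values were seen, were called in it.

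**Figure D5:**
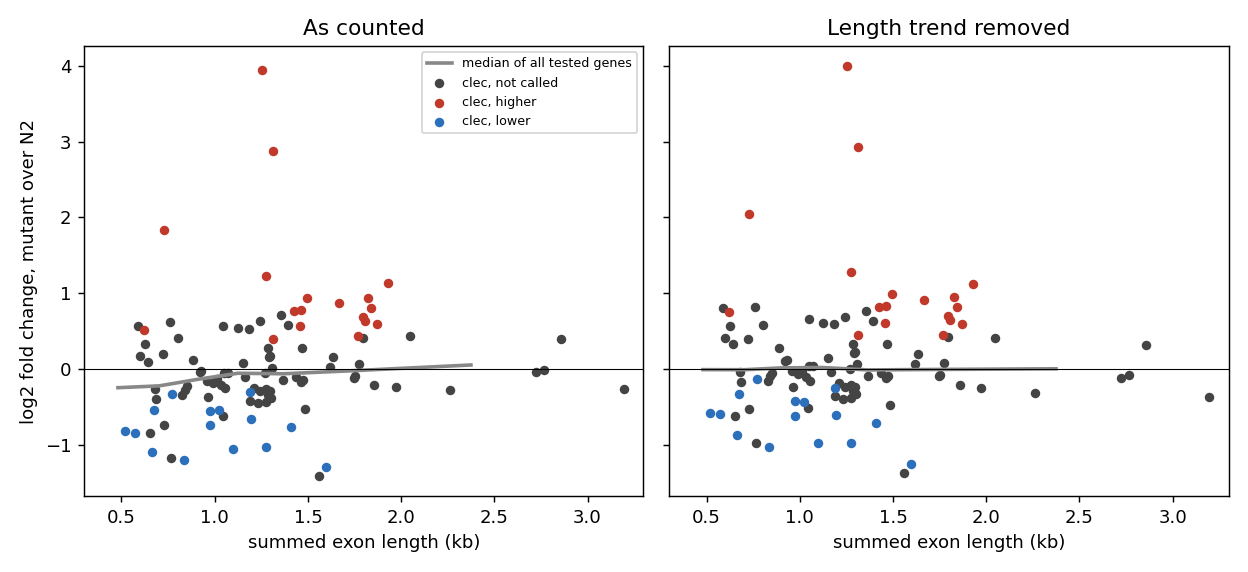
log2 fold change, mutant over N2, against summed exon length in kb for the 103 tested clec genes, as counted (left) and with each library's length trend removed (right), with the median of all tested genes as a grey line. The 18 higher genes sit mostly above 1.2 kb in both panels, and the grey line is level only on the right.

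Markers of several tissues differed between the groups as well. Of 19 tested rows of sperm genes (ssp-9 stands on 2) 14 were higher and 0 lower (17 and 0 with the length trend removed), beside 13.1% and 13.3% of all tested genes, and their summed level was 537 and 605 CPM in N2 against 822 and 761 CPM in the mutant. Of 14 oocyte genes 0 were higher and 4 lower (1 and 7 with the length trend removed), with sums of 9637 and 8735 against 7524 and 7859 CPM. Of 10 intestinal genes 3 were higher and 1 lower (4 and 1 with the length trend removed). Their sums were 3307 and 3233 against 3597 and 3950 CPM. By group mean asp-1 alone went from 1492 to 1981 CPM, while cpr-1 fell from 476 to 305 CPM. Of 6 body wall muscle genes 3 were higher and 0 lower (2 and 0 with the length trend removed). Their sums were 6130 and 6584 against 8759 and 8912 CPM. There unc-54 alone went from 3944 to 6031 CPM, while hlh-1 (-0.21), mlc-1 (-0.07) and unc-27 (-0.26) leaned lower without a call. Single abundant genes weigh most in these sums. Pharynx (2 higher and 1 lower of 6), hypodermis (2 and 1 of 8) and neuron genes (1 and 2 of 8) were called in both directions, and coelomocyte genes (0 and 0 of 4) in neither. With the length trend removed these were 2 and 1, 3 and 0, 0 and 2, and 0 and 0. Such short lists give no reliable share. Without mutant replicate 1 there were 7 sperm genes higher and 2 oocyte genes lower, and without mutant replicate 2 there were 12 and 2; without N2 replicate 2 there were 10 oocyte genes lower. None of the intestinal and muscle genes was called higher when either mutant library was left out. Every marker in the table had at least 1 count. The part of these tissues in the clec changes was not tested.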

How the data were processed

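RNA was extracted with Trizol from frozen whole worms and sequenced from ScriptSeq v2 libraries, per the labels' protocols. Raw gene counts of 4 libraries were deposited by the authors. The sources used here name no aligner, counting tool, build or strand setting. The log2 values that the authors deposited equal log2 of counts scaled to a common total plus 8 (largest gap 0.000508). Libraries of a group were not duplicates: chi-square per degree of freedom was 30.7 in N2 and 9.06 in the mutant.

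Symbols were matched by gene ID. Positions and exon lengths came from the Ensembl annotation of WBcel235. In R 4.3.3, edgeR 4.0.16 (quasi-likelihood, TMM factors 0.985 to 1.01, filterByExpr) tested 13944 genes, with Benjamini-Hochberg adjusted p below 0.05 as the call. Standard errors are the size of the log2 fold change over the root of F. Alternatives were DESeq2 1.42.0, limma 3.58.1 on the deposited log2 values, other scalings and filters, each library left out, a replicate block, and offsets that take out a lowess trend of counts with exon length.

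Named clec genes were the 10 largest called changes each way whose higher group reached 0.5 CPM, the 8 most abundant and 9 chosen reporters. The other called genes were added after their values were seen. The members and lists were chosen with earlier results of these data known. In simulated counts for this comparison (13944 genes), edgeR found 97% of 2-fold and 63% of 1.5-fold changes, and 6.43% of calls were false. The simulation changed few genes, all with a mean above 1 CPM, and gave every gene and group the same spread. Its rates therefore do not cover the 26 tested clec genes under 1 CPM, clec-33 and clec-28 among them, and may differ for the others.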

Additional observations from a re-analysis of the deposited data

How the results depend on the processing

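The numbers of 18 higher and 15 lower clec genes stayed within 1.5 times under the other scalings, filters and tests and with the length trend removed. Leaving out a library gave 7 to 19 higher and 4 to 22 lower clec genes, and 829 to 2067 higher and 361 to 2322 lower among all tested genes. No called clec gene changed sign under any alternative run that gave it a value. DESeq2 also called 24 of the 33 and limma 30, and DESeq2 gave clec-33 no adjusted p. The replicate block gave 19 higher and 15 lower clec genes (12.9% and 12.4% of all tested genes). The labels do not say that a replicate number marks a shared culture, and the replicate differences of the groups correlated at -0.159 over 8093 genes. Under the block clec-150 was not called (-0.31) and clec-67 was (0.45). The counts of the pathway, effector, infection and marker lists without each library were added after seeing the data. The difference of the summed level was 73.02 CPM with the length trend removed, against -55.4 CPM, and ran from -162 to 51.1 CPM when a library was left out, so its direction is not settled. No summed level was computed for the block, the other tests or the fit without a filter, which give no other sum. With 2 libraries per group their number limits the precision, and genes under 1 CPM are also limited by counting error.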
